A study of Mus musculus with 8 samples.

Results

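Described here are 10 genes of the core circadian clock loop, chosen by name from the 30266 genes of the deposited table: the activators Arntl, Clock and Npas2, the period genes Per1, Per2 and Per3, the cryptochromes Cry1 and Cry2, and the nuclear receptor genes Nr1d1 and Nr1d2. They were read in liver of male mice, 8 weeks old and labelled Mdr2-/-, given recombinant FGF21 (rFGF21) at 1.0 mg/kg (4 libraries) or the vehicle PBS (4 libraries). Livers were taken 4 h later. Both groups are labelled Mdr2-/-. Mdr2 is an earlier symbol of Abcb4, which moves phospholipid into bile; its loss in mice causes cholestatic liver injury. No wild-type animals were analysed here, and the hour of day at which each liver was taken was not given in the sources used here. The part of that hour in the clock values, between groups or between libraries, was not tested.

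The clock loop is a transcriptional feedback circuit with a period of about a day, present in nearly every cell and strongly rhythmic in hepatocytes. The proteins of Arntl (BMAL1) and Clock, or Npas2 in its place, bind E-box sequences together and switch on the Per, Cry and Nr1d genes. PER and CRY proteins then block that activator, and the Nr1d products (REV-ERBα and REV-ERBβ) repress Arntl, Npas2 and Cry1 through ROR response elements. In mouse liver Arntl and the Nr1d genes therefore peak at opposite times of day, and Per1 can also be induced acutely by hormones and feeding cues.

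None of the 10 clock members passed the test between rFGF21 and PBS livers by edgeR's quasi-likelihood test, at a p under 0.05 after Benjamini-Hochberg adjustment over 18315 genes. DESeq2 and limma-trend each called 1 of them, Per1, while DESeq2 called 8.23% and limma-trend 2.96% of all genes. Of all genes tested, 2.82% passed with edgeR, 1.15% higher (210 genes) and 1.67% lower (306 genes); with edgeR on library totals in place of TMM factors the split was 257 higher and 178 lower. Per1 and Arntl stood apart from the other members. Per1 averaged 42.7 ± 16.0 CPM (read counts per 1000000, TMM-normalized) in rFGF21 livers and 85.1 ± 20.7 CPM in PBS livers (SD, n = 4 each), and Arntl averaged 3.70 ± 1.13 CPM in rFGF21 livers and 2.20 ± 0.50 CPM in PBS livers. In both genes the 4 rFGF21 values lay wholly on one side of the 4 PBS values. Over all genes tested, such groups without overlap were found in 12.3%, and 2 of the 10 members (20%) is a count too small to set against that share. The remaining 8 members had overlapping groups. At an unadjusted p under 0.05, 1 member was lower (Per1) and 1 higher (Arntl), beside 18.8% of all genes. The median log2 fold change of the 10 members was -0.073, beside 0.0034 for all genes tested.

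The libraries held 62756328 to 73313449 reads. Hepatocyte markers summed to between 56272 and 69624 CPM in rFGF21 libraries and between 56332 and 75952 CPM in PBS libraries, and none of their 5 genes was called by edgeR. Cholangiocyte markers summed to between 233 and 360 CPM in rFGF21 libraries and between 167 and 262 CPM in PBS libraries. T and B cell markers summed to between 6.91 and 7.55 CPM in rFGF21 libraries and between 6.34 and 6.46 CPM in PBS libraries, without overlap. These sums rest on few reads, at most 227 for a gene in a library, and edgeR called none of the 5 genes. Sums of the Kupffer cell, stellate, endothelial and neutrophil markers overlapped between groups, and edgeR called no gene of these lists; their part in the clock values was not tested. The protocol text in the labels names retina, and the 5 retina markers summed to at most 0.274 CPM in rFGF21 libraries and 0.327 CPM in PBS libraries, with Crx and Rcvrn at 0 reads throughout. Abcb4 averaged 407 ± 28.7 CPM in rFGF21 livers and 384 ± 36.3 CPM in PBS livers, with 19723 to 31245 reads in every library. Counts over the whole gene do not show whether its transcript is intact, so the genotype is given as labelled. PBS library 4 differed from the rest in its mitochondrial transcripts, which took 7.96% of its reads against 3.27% to 4.55% in the other 7. It also held the highest Per1, Per2, Per3 and Nr1d1 of the 8 libraries, and values without it are given below for these genes. Whole liver holds many cell types, and fewer cells of a type cannot be told apart from less RNA per cell in any value here.

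**Figure D1:**
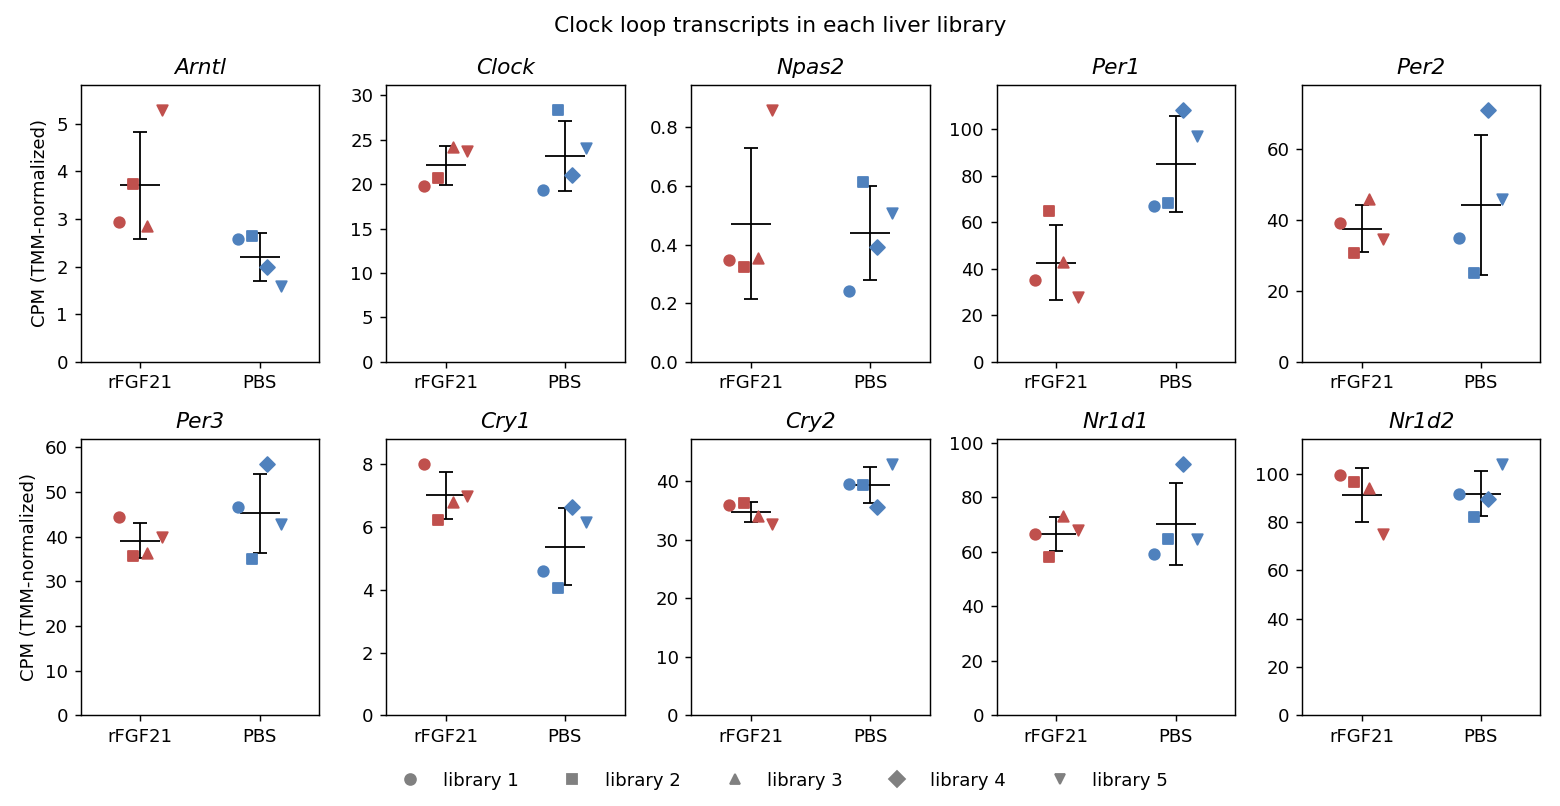
TMM-normalized CPM (y axis, linear, from 0) of each clock member in the 4 rFGF21 and 4 PBS libraries. Marker shapes give the library number, which is not known to pair the groups, and bars give the mean and SD. All rFGF21 values lie below all PBS values for Per1, and above them for Arntl, while the groups overlap in the other 8 panels.

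On the activator side, Arntl (ENSMUSG00000055116, GRCm38 chromosome 7, 113207465 to 113314126, plus strand) encodes BMAL1, the partner without which the loop does not run. It was read at 2.94, 3.73, 2.86 and 5.29 CPM in rFGF21 libraries 1, 2, 3 and 5, and at 2.57, 2.64, 2.00 and 1.59 CPM in PBS libraries 1, 2, 4 and 5. The lowest rFGF21 value, 2.86 CPM, was close to the highest PBS value, 2.64 CPM, and rFGF21 library 5 was well above the other 7. The log2 fold change was 0.75 ± 0.26 (SE), or 1.68-fold, with a 95% confidence interval of 0.19 to 1.32 before adjustment and an edgeR adjusted p of 0.145. It dropped to 0.53 when rFGF21 library 5 was left out (edgeR adjusted p = 0.353). Arntl rested on few reads, 209 to 400 in rFGF21 libraries and 109 to 181 in PBS libraries.

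Clock (chromosome 5, 76209868 to 76304792, minus strand) encodes the partner of BMAL1. Its level was 22.1 ± 2.2 CPM in rFGF21 livers and 23.2 ± 4.0 CPM in PBS livers, and the rFGF21 range of 19.8 to 24.2 CPM lay within the PBS range of 19.3 to 28.3 CPM. Its log2 fold change was -0.068 ± 0.129, and the 95% confidence interval, -0.35 to 0.22, leaves out any rise or fall beyond 1.28-fold. Npas2 (chromosome 1, 39193731 to 39363236, plus strand), a paralog of Clock that can take its place, was read at 0.346, 0.325, 0.356 and 0.859 CPM in the rFGF21 libraries and at 0.241, 0.613, 0.393 and 0.509 CPM in the PBS libraries. With 23 to 65 reads in an rFGF21 library and 17 to 39 in a PBS library, its interval of -0.93 to 1.14 on the log2 scale left a doubling undecided. rFGF21 library 5 was the highest of the 8 for both Npas2 and Arntl.

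Among the period genes, Per1 (ENSMUSG00000020893, chromosome 11, 69095217 to 69109960, plus strand) encodes a repressor of the BMAL1 and CLOCK pair. Its values were 35.2, 64.9, 42.7 and 27.9 CPM in rFGF21 libraries 1, 2, 3 and 5, and 66.9, 68.1, 108 and 96.9 CPM in PBS libraries 1, 2, 4 and 5. rFGF21 library 2, at 64.9 CPM, came close to the lowest PBS library at 66.9 CPM, and the other rFGF21 libraries were at 42.7 CPM or below. The log2 fold change was -0.99 ± 0.25 (95% confidence interval -1.54 to -0.45, 0.502-fold), and the edgeR adjusted p of 0.0614 missed the threshold. By p, Per1 ranked 643 of 18315 genes. The side of the threshold depended on the tool and the libraries: the adjusted p was 0.00136 with DESeq2 and 0.0486 with limma-trend on log2 CPM, and 0.0227 with edgeR without rFGF21 library 2, where the log2 fold change was -1.26. Over all 18 alternatives the log2 fold change stayed between -1.26 and -0.84, with adjusted p between 0.00136 and 0.272. Without PBS library 4 it was -0.86 (edgeR adjusted p = 0.116).

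Per2 (chromosome 1, 91415982 to 91459324, minus strand), which encodes the repressor whose loss most disturbs mouse rhythms among the period genes, did not share that separation. It was read at 39.1, 30.7, 46.0 and 34.6 CPM in the rFGF21 libraries and at 35.0, 25.1, 71.0 and 46.0 CPM in the PBS libraries. The PBS libraries thus held both the lowest and the highest value. Its log2 fold change of -0.24 ± 0.27 (edgeR adjusted p = 0.690) turned to 0.091 without PBS library 4. Per3 (chromosome 4, 151003652 to 151044665, minus strand), the least required of the 3 period genes for the rhythm, ranged from 35.7 to 44.3 CPM in rFGF21 libraries and from 35.0 to 56.3 CPM in PBS libraries, with a log2 fold change of -0.21 ± 0.14 (edgeR adjusted p = 0.450). Without PBS library 4 that of Per3 was -0.084 (edgeR adjusted p = 0.747).

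The repressor genes of the cryptochrome family pointed in opposite directions without passing. Cry1 (ENSMUSG00000020038, chromosome 10, 85131700 to 85185064, minus strand), the stronger of the CRY repressors and a target of both BMAL1 and REV-ERB, was read at 8.02, 6.24, 6.80 and 6.99 CPM in rFGF21 libraries and at 4.61, 4.06, 6.65 and 6.17 CPM in PBS libraries. The groups overlapped only through rFGF21 library 2, which lay below PBS library 4. The log2 fold change was 0.38 ± 0.18 (edgeR adjusted p = 0.287). Cry2 (chromosome 2, 92403646 to 92434043, minus strand) was read at 35.9, 36.4, 34.2 and 32.8 CPM in rFGF21 libraries and at 39.6, 39.4, 35.6 and 43.0 CPM in PBS libraries. PBS library 4 was the single PBS library within the rFGF21 range, and the log2 fold change was -0.18 ± 0.086 (edgeR adjusted p = 0.293). Without PBS library 4 the log2 fold changes were larger and still uncalled, 0.51 for Cry1 and -0.22 for Cry2 (edgeR adjusted p = 0.169 and 0.158).

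Nr1d1 (chromosome 11, 98767932 to 98775333, minus strand) and Nr1d2 (chromosome 14, 18204054 to 18239127, minus strand) encode the REV-ERB repressors of Arntl. Nr1d1 was read at 66.5, 58.1, 73.2 and 68.1 CPM in rFGF21 libraries and at 59.1, 64.6, 92.3 and 64.6 CPM in PBS libraries. Apart from PBS library 4, the groups lay over the same range. Its log2 fold change was -0.077 ± 0.139 (95% confidence interval -0.38 to 0.23), and 0.086 without PBS library 4. Nr1d2 was read at 99.3, 96.4, 94.0 and 74.9 CPM in rFGF21 libraries and at 91.4, 82.1, 89.3 and 104 CPM in PBS libraries, a log2 fold change of -0.0088 ± 0.111. The intervals left out a fall beyond 1.30-fold for Nr1d1 and beyond 1.19-fold for Nr1d2. Exons of Cry2 and of Arntl each overlap a gene on the other strand, over 295 of 6320 bases (4.67%) and 33 of 7523 bases (0.439%). Exons of Nr1d1 overlap those of Thra, a thyroid hormone receptor gene on the other strand, over 263 of 3077 bases (8.55%). Whether the counting used strand was not given in the sources used here, and Thra itself stood at 18.2 CPM in rFGF21 livers and 18.9 CPM in PBS livers.

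**Figure D2:**
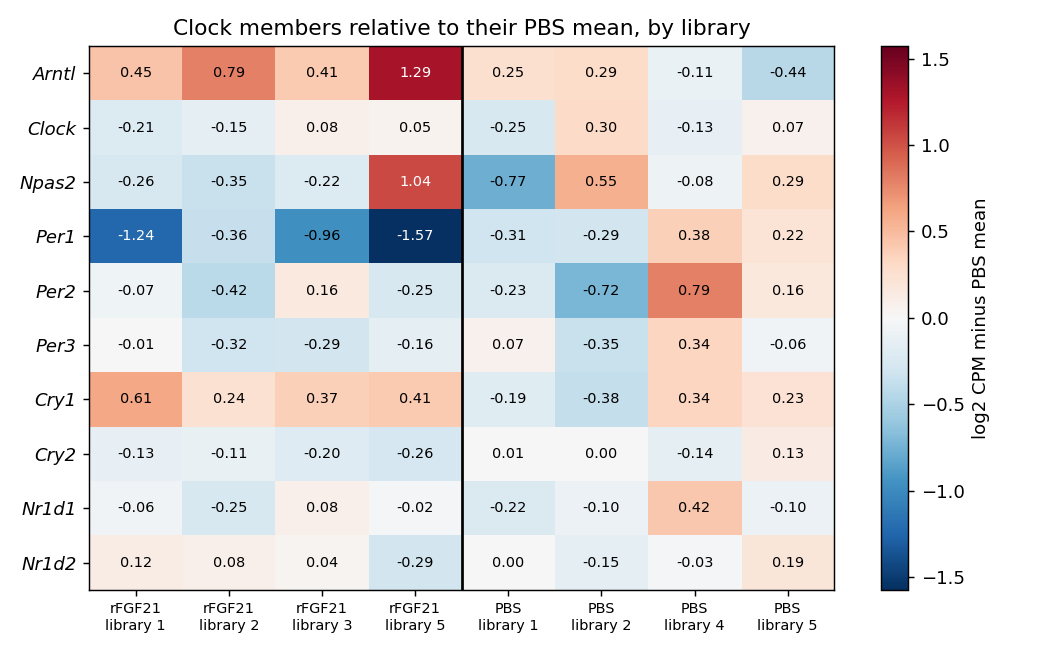
Log2 CPM of each clock member (rows) in each library (columns), minus the member's PBS mean; red is above and blue below that mean. Per1 is below its PBS mean in all 4 rFGF21 libraries (-1.57 to -0.36) and Arntl above it (0.41 to 1.29), while the Nr1d rows stay within -0.29 to 0.42.

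Promoter sequences of the members whose means differed most are given so that the elements named above can be read directly. They are from RefSeq, GRCm38.p6, and run from 250 bases before to 50 bases after an annotated start. Capitals mark an E-box (CACGTG), its variant CACGTT, a ROR element core (TAGGTCA), a D-box (TTATGNAA) or a full cyclic AMP response element (TGACGTCA), searched on both strands. N stands for any base.
Per1, chr11:69098699-69098998, plus strand, upstream start: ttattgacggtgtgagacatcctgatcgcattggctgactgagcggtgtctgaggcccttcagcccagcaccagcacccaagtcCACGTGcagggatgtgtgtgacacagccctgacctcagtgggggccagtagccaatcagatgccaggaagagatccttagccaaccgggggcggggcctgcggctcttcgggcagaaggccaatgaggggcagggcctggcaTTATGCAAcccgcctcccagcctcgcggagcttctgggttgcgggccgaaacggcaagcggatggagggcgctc
Arntl, chr7:113207261-113207560, plus strand, downstream start: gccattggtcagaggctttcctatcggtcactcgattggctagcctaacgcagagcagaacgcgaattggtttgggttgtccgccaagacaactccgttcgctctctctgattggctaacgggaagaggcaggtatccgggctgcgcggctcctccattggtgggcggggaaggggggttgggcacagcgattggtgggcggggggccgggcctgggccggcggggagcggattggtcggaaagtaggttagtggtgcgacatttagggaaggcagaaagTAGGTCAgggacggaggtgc
Cry1, chr10:85185005-85185304, minus strand: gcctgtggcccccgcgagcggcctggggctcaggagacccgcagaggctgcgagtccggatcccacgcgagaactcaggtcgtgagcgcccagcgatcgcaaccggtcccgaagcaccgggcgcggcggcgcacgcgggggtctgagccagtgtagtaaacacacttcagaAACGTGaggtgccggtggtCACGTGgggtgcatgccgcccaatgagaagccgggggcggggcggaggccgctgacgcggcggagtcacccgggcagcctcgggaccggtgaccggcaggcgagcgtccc

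The Per1 window held an E-box whose first base lay 166 bases before the start and a D-box 24 bases before it. The Cry1 window held an E-box 60 bases before its start, with the variant CACGTT (read as AACGTG on the printed strand) 79 bases before it. The Arntl window held a ROR element core 30 bases after that start, and its E-box motifs were absent from these letters. Per1 also had a window at a downstream start and Arntl at an upstream start. These windows, not printed, held none of the capitalized motifs. Of 32851 promoter windows in the table, 7.15% held CACGTG, 4.68% CACGTT, 2.61% TAGGTCA, 3.38% TTATGNAA and 1.79% TGACGTCA. Among the other members, Nr1d1 and Cry2 each held 1 CACGTT and Per3 held 2 D-boxes, 205 and 158 bases before the start. The windows of Clock, Npas2 and Nr1d2 held none of these 5 motifs, and 9 of the 10 members had a window in the table; Per2 had none. A match describes letters and is not a measured binding site.

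Levels between genes were compared per length, as TMM-normalized reads per kilobase of exon and per 1000000 reads (RPKM), computed from the counts with the summed length of all annotated GENCODE exons of a gene. In rFGF21 livers the order was Nr1d1 (21.6 ± 2.0 RPKM), Nr1d2 (16.9 ± 2.0), Per1 (7.58 ± 2.84), Per2 (6.42 ± 1.12), Cry2 (5.51 ± 0.26), Per3 (4.07 ± 0.41), Cry1 (2.10 ± 0.22), Clock (1.61 ± 0.16), Arntl (0.492 ± 0.150) and Npas2 (0.0984 ± 0.0540 RPKM; SD, n = 4). Neighbours whose ranges overlapped there were Per1 and Per2, and Per2 and Cry2. In PBS livers Nr1d1 stood at 22.8 ± 4.9 RPKM, Nr1d2 at 17.0 ± 1.7 and Per1 at 15.1 ± 3.7, with Per2 at 7.56 ± 3.38 RPKM. Below them came Cry2 (6.23 ± 0.48 RPKM), Per3 (4.71 ± 0.92), Clock (1.69 ± 0.29), Cry1 (1.61 ± 0.37), Arntl (0.292 ± 0.066) and Npas2 (0.0917 ± 0.0333 RPKM). There each neighbour from Nr1d1 down to Per3 overlapped the next, as did Clock and Cry1. The ranges of Nr1d2 and Per1 did not overlap in rFGF21 livers (13.9 to 18.4 and 4.96 to 11.5 RPKM) and overlapped in PBS livers (15.2 to 19.2 and 11.9 to 19.2 RPKM). All 4 rFGF21 values of Cry1 lay above all 4 of Clock (1.87 to 2.40 against 1.44 to 1.76 RPKM), while in PBS livers their ranges overlapped (1.21 to 1.99 and 1.41 to 2.06 RPKM). That order rests on the summed exon lengths, 13727 bases for Clock and 3340 for Cry1. In CPM Clock was the higher in rFGF21 livers (22.1 against 7.01). Lengths of the transcripts present in these livers were not measured, so the order between genes holds for these summed lengths only. Arntl and Npas2 were the lowest members in both groups, and their ranges did not overlap each other.

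Whether the members differed from their own paralogs was tested by the log2 CPM ratio in each library, with an exact permutation test of the 8 libraries (two-sided) over 6 pairs. The Per1 to Per3 ratio averaged 0.061 ± 0.621 on the log2 scale in rFGF21 livers and 0.90 ± 0.28 in PBS livers (difference -0.84, exact p = 0.0571, Benjamini-Hochberg adjusted over the pairs 0.171). The Per1 to Per2 ratio averaged 0.13 ± 0.64 in rFGF21 livers and 1.01 ± 0.35 in PBS livers (difference -0.89, exact p = 0.114, adjusted 0.229). The Cry1 to Cry2 ratio averaged -2.31 ± 0.17 in rFGF21 livers and -2.90 ± 0.37 in PBS livers (difference 0.58, exact p = 0.0571, adjusted 0.171). The remaining pairs, Per2 to Per3, Nr1d1 to Nr1d2 and Npas2 to Clock, differed between groups by 0.047, -0.048 and 0.11, with exact p of 0.83 or more. The smallest p that 4 against 4 libraries allow is 0.0286. Adjusted over the 6 pairs, a single pair at that p would stand at 0.171, so the adjusted test could not pass for 1 pair alone and does not decide whether the response of Per1 differed from that of Per2 or Per3.

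The activator arm (mean log2 CPM of Arntl, Clock and Npas2) was set against the repressor arm (mean log2 CPM of the 3 Per and 2 Nr1d genes) in each library, as a description. The repressor arm exceeded the activator arm by 4.26, 4.15, 4.22 and 3.26 on the log2 scale in rFGF21 libraries 1, 2, 3 and 5, and by 4.62, 3.80, 4.99 and 4.61 in PBS libraries 1, 2, 4 and 5. The groups overlapped: PBS library 2 lay below 3 of the rFGF21 libraries. The mean was 3.97 ± 0.48 in rFGF21 livers and 4.51 ± 0.50 in PBS livers, a difference of -0.53, about as large as the SD within groups (0.491). Without rFGF21 library 5 the difference was -0.29. It was -1.02 with Arntl alone as the activator arm, -0.70 with the Per genes alone as the repressor arm and -0.28 with the Nr1d genes alone. The activator arm itself differed by 0.24 and the repressor arm by -0.29. Most of the -0.28 thus came from the activator arm, since Nr1d1 and Nr1d2 had log2 fold changes of -0.077 and -0.0088. Among the repressor arm genes Per1 had the largest, -0.99, so the arm difference does not show a shift shared by all members.

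Single genes of the arms separated the libraries to different degrees. The log2 ratio of Per1 to Arntl was 3.58, 4.12, 3.90 and 2.40 in rFGF21 libraries and 4.70, 4.69, 5.75 and 5.93 in PBS libraries; that these do not overlap follows from the values of the 2 genes, given above. That of Nr1d1 to Arntl was 4.49, 3.96, 4.67 and 3.69 in rFGF21 libraries and 4.52, 4.61, 5.52 and 5.34 in PBS libraries, where rFGF21 library 3 lay within the PBS range. In PBS livers the libraries with the least Arntl, 4 and 5, were those with the most Per1, Per2 and Cry1. The other repressor genes broke that order. Per3 was higher in PBS library 1 (46.7 CPM) than in PBS library 5 (42.8 CPM). Nr1d2 was higher in PBS library 1 (91.4 CPM) than in PBS library 4 (89.3 CPM). Cry2 was lowest in PBS library 4 (35.6 CPM), and Nr1d1 stood at 64.6 CPM in both PBS library 2 and PBS library 5. Nor did the order hold for the activator partners: Clock was lower in PBS library 4 (21.0 CPM) than in PBS library 5 (24.1 CPM) and lowest in PBS library 1.

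**Figure D3:**
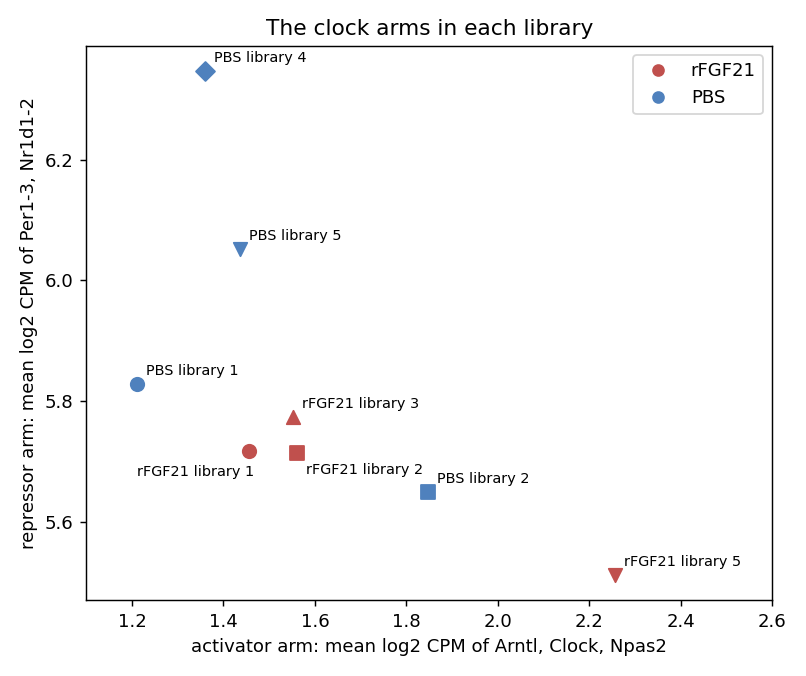
Mean log2 CPM of the repressor arm (y axis: the 3 Per and 2 Nr1d genes) against that of the activator arm (x axis: Arntl, Clock, Npas2), 1 point per library, rFGF21 red and PBS blue. rFGF21 library 5 has the highest activator arm (2.26) and the lowest repressor arm (5.51), PBS library 4 has the highest repressor arm (6.35), and PBS library 2 lies between rFGF21 libraries on both axes.

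Around the loop, 41 further clock genes were read and 40 could be tested; Rorb did not pass the filter on low counts. Of the 40, 1 fell and 0 rose (2.5%, beside 2.82% of all genes), with a median log2 fold change of -0.029. Usp2, a deubiquitinating enzyme with rhythmic expression in liver, fell to 24.7, 13.8, 27.6 and 13.5 CPM in rFGF21 libraries, against 45.9, 32.6, 67.2 and 58.0 CPM in PBS libraries, a log2 fold change of -1.36 ± 0.28 (edgeR adjusted p = 0.0313). Every rFGF21 library was below every PBS library. The log2 fold change stayed between -1.56 and -1.19 when a library was left out, but the call was lost without any library except rFGF21 library 3 or PBS library 2 (edgeR adjusted p 0.0611 to 0.0838).

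The 3 uncalled further genes with the smallest p were all lower in rFGF21 livers. Nfil3, a repressor that competes at D-boxes, averaged 6.98 ± 1.22 CPM in rFGF21 livers and 11.1 ± 2.2 CPM in PBS livers (-0.67 ± 0.18, edgeR adjusted p = 0.0854). Btrc, part of the ubiquitin ligase that degrades PER proteins, had a log2 fold change of -0.40 ± 0.11 (edgeR adjusted p = 0.0972). Prkaa2, a catalytic subunit of AMP-activated kinase, which can mark CRY for degradation, had -0.40 ± 0.12 (edgeR adjusted p = 0.0988). By group, 0 of 8 tested accessory loop genes were called, 0 of 3 PAR bZIP activators and 0 of 8 kinases and phosphatases. Of the ubiquitin ligases and proteases 1 of 8 was called (Usp2), and 0 of 13 corepressor and chromatin genes. The PAR bZIP log2 fold changes were -0.17 ± 0.14 for Dbp (edgeR adjusted p = 0.577), -0.25 ± 0.11 for Tef (0.235) and -0.50 ± 0.15 for Hlf (0.113). At an unadjusted p under 0.05 these 40 genes included 5 higher and 7 lower, beside 18.8% of all genes, and DESeq2 called 5, all lower, beside its 8.23% of all genes (Usp2, Nfil3, Btrc, Prkaa2 and Hlf).

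**Figure D4:**
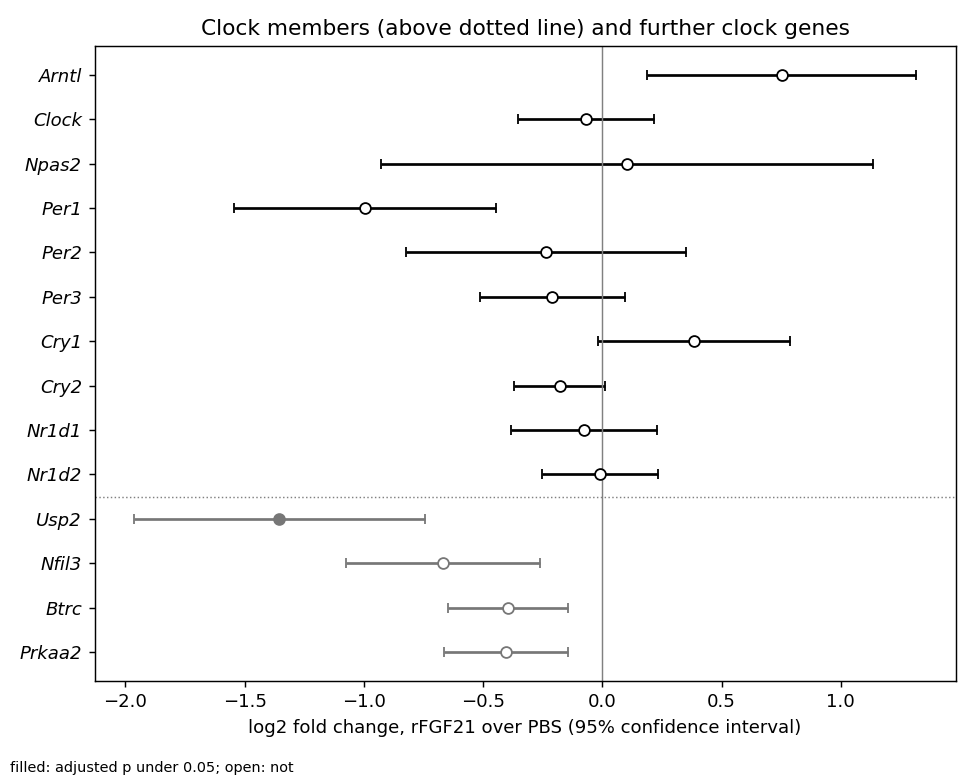
Log2 fold change (rFGF21 over PBS, x axis) with its 95% confidence interval before adjustment for the 10 clock members (black, above the dotted line) and 4 further clock genes (grey); filled points have an adjusted p under 0.05. Only Usp2 is filled, and among the members the intervals of Per1 (-1.54 to -0.45) and Arntl (0.19 to 1.32) do not reach 0.

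Temperature and glucocorticoid signals can reset the liver clock, and 13 of their response genes were read beside the members. None was called (edgeR; 3 higher and 2 lower at an unadjusted p under 0.05, beside 18.8% of all genes; 0 with DESeq2 and with limma-trend). Log2 fold changes of the heat shock genes were -0.65 for Hspa1b, -0.56 for Hspa1a, -0.39 for Hsph1, -0.30 for Dnajb1, -0.057 for Hspa8 and -0.041 for Hsp90aa1. Those of the cold-inducible Cirbp and Rbm3 were 0.39 and 0.19. Those of the glucocorticoid targets were 0.57 for Zbtb16, 0.34 for Fkbp5, 0.048 for Sgk1 and -0.40 for Tsc22d3, and 0.13 for the receptor gene Nr3c1. Their part in the Per1 and Arntl values was not tested.

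Non-member genes whose profile over the 8 libraries lay nearest to that of Arntl and Per1 were found by the root mean square difference of mean-centred log2 CPM among 10235 named genes with a mean of at least 5 CPM. Nearest to Arntl were Neat1 (0.156), a nuclear long noncoding RNA, then Tnfrsf11a (0.156), Marveld3 (0.178), Cx3cr1 (0.181) and Ace (0.182, all on the log2 scale). Nearest to Per1 were Ppp1r10 (0.187), Tob2 (0.220), Ppargc1a (0.222), Hyal1 (0.241) and Zyg11a (0.243). Among these 10, Neat1 (log2 fold change 0.74, edgeR adjusted p = 0.0234), Cx3cr1 (0.80, edgeR adjusted p = 0.0459) and Hyal1 (-1.11, edgeR adjusted p = 0.00652) were called, beside 2.82% of all genes. The 10 were picked for profiles like those of Arntl and Per1 over the same libraries. Differences between the groups are therefore built into the choice, and these calls are no separate evidence. None of the nearest genes belonged to the further clock list.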

How the data were processed

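Per the file headers, the authors deposited read counts per gene for 10 libraries and FPKM values for 8 of these. Libraries without FPKM values (2 count columns) were not used here. Columns could be tied to a group and not to a single sample, so libraries carry the column's number. Bowtie 0.12.2 and the build mm8 are named, without a role, per the submitters' processing notes; the counting tool and strand setting were not given in the sources used here. The coordinates of all 10 members in the table equal those of GENCODE mouse release 21 (GRCm38). The labels do not say outright that each sample is a separate animal, so p-values cover the spread among these samples, which may be technical.

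The deposited counts were filtered with filterByExpr, TMM-scaled and tested with edgeR 4.0.16 (R 4.3.3), glmQLFit and glmQLFTest, two-sided, without covariates, on the whole table. On simulated data with known fold changes the step was checked beforehand. Standard errors follow from the F statistic, and 95% confidence intervals are not adjusted. Levels are TMM-normalized CPM (mean ± SD). Log2 CPM for the arms and ratios used a prior count of 0.5. DESeq2 1.42.0 and limma 3.58.1, other filters, other arm definitions, edgeR on library totals, RPKM on library totals with pseudocounts of 1 and 0.1 (mean of at least 0.5), and leaving out each library were alternatives. No pair of libraries agreed within sampling noise (chi-square over its degrees of freedom at least 47.1). Members and lists were chosen with earlier results of these data known, and 1 further clock gene is not reported here. Genes were named by rule: all members; further clock genes called, plus the 3 uncalled with the smallest p; and the 5 nearest profiles to the members with the largest and the smallest log2 fold change. Dbp, Tef, Hlf, Thra and the 13 temperature and glucocorticoid genes fall outside that rule and were named after their values were seen. The PAR bZIP list and the temperature and glucocorticoid list are named whole. Sequences are RefSeq's.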

Additional observations from a re-analysis of the deposited data

Results flagged for a closer look

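Of 22 groups of 4 libraries examined (10 members and the arm difference, each in rFGF21 and PBS), 3 had a library far from its other 3. Chance gives about 1 in 20 groups if they are independent. These are not, since the arm difference is computed from members, Npas2 among them. Npas2 was at 0.859 CPM in rFGF21 library 5, against 0.325 to 0.356 CPM in the other rFGF21 libraries. The arm difference of the same library was 3.26 on the log2 scale, against 4.15 to 4.26 in the others of its group. Nr1d1 was at 92.3 CPM in PBS library 4, against 59.1 to 64.6 CPM in the other PBS libraries; this is also the library with 7.96% mitochondrial reads.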

How the results depend on the processing

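Across 18 alternatives, Arntl was higher and uncalled in each of the 15 that kept it (log2 fold change 0.53 to 0.86; filters on CPM and RPKM removed it from 3), and Per3, Cry1 and Cry2 kept their sign and stayed uncalled in 18 of 18. The number of members called was 0, and 1 (Per1) with DESeq2 and with limma-trend; leaving out a library gave 0 to 1. The 516 genes called became 1508 with DESeq2, 198 without a filter, and 131 (without rFGF21 library 1) to 486 when a library was left out, over 1.5 times fewer without any library except PBS library 2 or 4. The 1 further clock gene called became 5 with DESeq2, 0 without a filter, and 0 to 1 when a library was left out (Nfil3 in place of Usp2 without PBS library 4). The DESeq2 split of all genes was 688 higher and 820 lower, against 210 and 306 by edgeR; edgeR on library totals, without TMM factors, gave 257 higher and 178 lower and moved the median of all genes to 0.087, and limma on log2(RPKM + 1) and log2(RPKM + 0.1), all 3 chosen after seeing the data, gave 216 higher and 154 lower, and 212 higher and 153 lower. The arm difference moved to -1.02 with Arntl alone as activator arm and lay between -0.77 and -0.29 when a library was left out. In all these the cause was not tested.

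Signs of members near 0 turned, always without a call. On RPKM with pseudocounts of 1 and 0.1, Clock reached 0.013 and 0.023, Nr1d1 0.023 and 0.024, and Nr1d2 0.068 and 0.071. With edgeR on library totals Clock reached 0.014, Nr1d1 0.016 and Nr1d2 0.072. Nr1d2 reached 0.0011 with at least 5 CPM in 4 libraries. When a library was left out, the log2 fold change lay between -0.14 and 0.042 for Clock (highest without PBS library 2), -0.36 and 0.31 for Npas2 (lowest without rFGF21 library 5), -0.43 and 0.091 for Per2 (highest without PBS library 4), -0.15 and 0.086 for Nr1d1 (highest without PBS library 4) and -0.059 and 0.075 for Nr1d2 (highest without rFGF21 library 5). The log2 ratio then lay between -0.089 and 0.20 for Per2 to Per3, -0.15 and 0.10 for Nr1d1 to Nr1d2, and -0.18 and 0.25 for Npas2 to Clock. With 3 libraries in a group the exact test cannot go below p = 0.0571. Alternatives on the authors' FPKM were not run, and RPKM computed from the counts was used in their place.

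The column numbers 1, 2 and 5 occur in both groups. Deviations of same-numbered libraries from their group means showed little correlation over genes (r = 0.049, -0.0081 and -0.081). A small effect shared by same-numbered libraries could go unseen there, so these values do not settle whether the numbers pair the libraries. With the number as a replicate block over these 6 libraries, 12 genes, 0 members and 0 further clock genes were called, Per2 reached 0.014 and Nr1d1 0.033. The same 6 libraries without the block, an alternative chosen after seeing the data, gave 281 genes and 1 further clock gene (Nfil3, in place of Usp2), with Nr1d1 at 0.035. Npas2, with 17 to 65 reads per library, is the member most limited by depth.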
